A study of Mus musculus with 216 samples.

Results

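The imprinted cluster on distal mouse chromosome 7 was described through 9 of its genes, namely Kcnq1, Kcnq1ot1, Cdkn1c, Phlda2, Ascl2, Igf2, H19, Cd81 and Tssc4. All H3K9me3 domains that overlapped a gene body extended by 5 kb on either side were taken, which gave 16 domains of the 43039 in the authors' table. Of these 16 domains, 6 were in the intermediate decay class, 5 in the slow class, 5 in the residual class and 0 in the fast class. The shares of these classes over all assembled chromosomes were 71.5, 20.5, 4.57 and 3.49%. With so low a share of fast domains, none among 16 is unremarkable. The H19 control region lay inside an intermediate domain, whereas KvDMR1, the control region of the Kcnq1ot1 side of the cluster, lay in no domain and was 20.2 kb from the nearest. A stretch without a domain is not shown to lack H3K9me3, since how domains were called is not stated and no signal was read.

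The cells were mouse embryonic stem cells of the line dTKO, with the genotype Suv39h1 fl/fl, Suv39h2-/-, Setdb1 fl/fl at every time, the 0 h samples included. Auxin (100 µg/ml) and dTAG13 (0.5 µM), small molecules that direct tagged proteins to degradation, were given in a time course of 0, 1, 3, 12, 24 and 48 h, and H3K9me3, HP1β and matched inputs were sequenced in 216 runs. The 54 H3K9me3 runs, 9 per time, carry a pair of numbers in their titles. These were read as 3 biological repeats with 3 sequencing runs each. The labels do not settle which number is the repeat and which the run, and no value below depends on it. The question was how fast the mark decays once the H3K9 methyltransferases are ablated. The sources used here do not say which proteins carry the tags, or whether dTKO is a single clone. The table measures chromatin only, so the cell type could not be checked against expressed markers. It holds 1 class in words per domain (fast, intermediate, slow or residual) and 0 columns for samples, times or alleles, so no value below has an error between cultures, no test was possible, the depth behind a class is unknown, and the maternal and paternal chromosomes are not told apart.

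Genomic imprinting keeps a gene active on the chromosome from only a single parent. At each control region the DNA of either the maternal or the paternal copy is methylated in the germ line and stays so in the embryo. At the H19 control region the unmethylated maternal copy binds CTCF, an insulator protein that separates Igf2 from enhancers beyond H19, while the paternal copy is methylated. KvDMR1 is methylated on the maternal copy, and its unmethylated paternal copy is the promoter of Kcnq1ot1, a long noncoding RNA that silences neighbouring genes in cis. The zinc finger protein ZFP57 binds methylated TGCCGC at many control regions and, through TRIM28, brings the H3K9 methyltransferase SETDB1, an enzyme whose gene is floxed in these cells.

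The sequences of the control regions are shown first, because the position of domains against them is what the description turns on. Coordinates are on mm10 (GRCm38) and 1-based. The H19 control region was taken as the stretch 2 to 4 kb upstream of the H19 start (chr7:142580143-142582143). The CTCF core, a motif of 14 bases, was searched on both strands in the 10 kb upstream of H19 and was found 3 times, each inside that stretch and inside the intermediate domain, at 2.17, 2.62 and 3.89 kb from the start. The 3 matches lie on the minus strand and are printed 5′ to 3′ on that strand with 8 bases to either side and the core in capitals.
CTCF core 1, chr7:142580301-142580330: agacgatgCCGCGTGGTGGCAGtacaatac
CTCF core 2, chr7:142580756-142580785: ggatgctaCCGCGCGGTGGCAGcatactcc
CTCF core 3, chr7:142582026-142582055: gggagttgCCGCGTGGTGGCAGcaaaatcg

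On chromosome 7, 0.0113% of consecutive windows of the same length held this core on either strand. The ZFP57 core TGCCGC occurred 5 times in the H19 control region, and 2 of the 3 CTCF cores shared bases with it. At least 1 TGCCGC was found in 11.8% of those windows, and 5 or more in 0.0325%. Both motifs contain CG and the windows were not matched for CpG content, so these shares do not measure enrichment at equal CpG content. A match of letters describes the sequence and is no measurement of binding.

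KvDMR1 was taken as the CpG island at the Kcnq1ot1 start (chr7:143294958-143296694), which was 1737 bp long, with a GC content of 54.6% and an observed over expected CpG ratio of 0.767. It lies in intron 11 of the Kcnq1 transcript with 16 exons. It held TGCCGC 3 times, and 3 or more were found in 0.254% of windows of that length on chromosome 7. KvDMR1 was picked as a CpG island and the motif itself contains CG, while the windows were not matched for CpG content. The low share therefore shows no enrichment beyond that expected of a CpG island. It held the CTCF core 0 times. The 300-base stretch with all 3 matches is printed on the plus strand, with TGCCGC or its reverse complement in capitals. It starts 803 bp into Kcnq1ot1 and overlapped no domain.
KvDMR1 stretch, chr7:143295447-143295746: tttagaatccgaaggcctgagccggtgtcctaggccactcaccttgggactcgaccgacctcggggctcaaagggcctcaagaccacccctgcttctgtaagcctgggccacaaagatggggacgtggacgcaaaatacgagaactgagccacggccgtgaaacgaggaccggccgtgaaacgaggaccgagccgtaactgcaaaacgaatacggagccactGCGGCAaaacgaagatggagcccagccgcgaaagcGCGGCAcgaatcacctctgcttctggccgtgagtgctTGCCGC

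H19 was covered over its whole length by a domain of intermediate class. H19 is a maternally expressed long noncoding RNA and the host of the microRNA Mir675. Its domain was 9.9 kb wide (chr7:142574701-142584600), and held 100% of the 2.62 kb gene body, all 7 annotated transcript starts and 100% of the control region. It also overlapped the small RNA annotations Gm27483 and Gm27786. Its width exceeded 96.6% of intermediate domains. The CpG ratio of this domain was 0.307, above 74.3% of all domains.

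The next domains toward Igf2 lay outside the 5 kb limit. An intermediate domain of 7.5 kb (chr7:142587001-142594500) began 8.86 kb upstream of the H19 start. A fast domain of 5.4 kb (chr7:142599001-142604400), 20.9 kb upstream, was the sole fast domain within 500 kb of the listed genes. That is 1 of 43 domains, or 2.33%, near the fast share on chromosome 7 (2.67%) and on all chromosomes (3.49%). Both overlapped the annotated gene Gm33148 and consisted of unique sequence (100% unique 31-mers). From H19 outward the order was therefore intermediate, intermediate, fast and then, after a gap of 60.6 kb, the slow domain at Igf2.

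**Figure D1:**
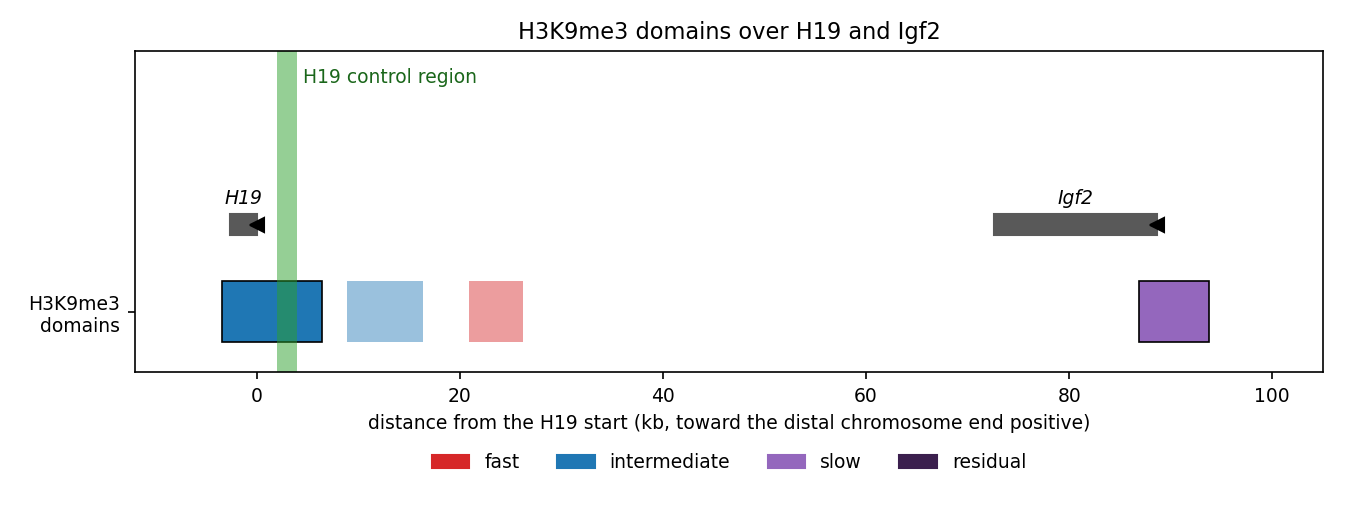
H3K9me3 domains around H19 and Igf2, by decay class, against the distance from the H19 start in kb. Grey bars are gene bodies with an arrowhead at the start, outlined boxes are domains at listed genes, pale boxes are domains beyond 5 kb from any of them, and the green band is the H19 control region, which lies wholly inside the 9.9 kb intermediate domain.

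Igf2 met a slow domain at its upstream end alone. Igf2 encodes a paternally expressed fetal growth factor. The domain was 6.9 kb wide (chr7:142665001-142671900) and covered 1.82 kb, or 11.3%, of the 16.1 kb gene body, with 1 of 9 transcript starts. It also overlapped Igf2os, an antisense transcript covered over 50.2% of its length, and the annotated protein-coding gene Gm49394. The domain was 82.9 kb from the H19 control region.

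The sequence before the Igf2 start in the slow domain had the lowest CpG ratio of the 4 Igf2 windows. Promoters were taken from RefSeq (GRCm38.p6), where 6 of the 9 listed genes matched with 9 starts, and only the 250 bases before each start were read. H19, Kcnq1 and Cdkn1c had no entry. The window before the most upstream Igf2 start (chr7:142666817-142667066) had a CpG ratio of 0.0637 and lay inside the slow domain. The window before the most downstream start (chr7:142657497-142657746) had a ratio of 0.250 and lay 7.25 kb from that domain. The remaining pair of Igf2 windows lay between these, outside the domain, and had ratios of 0.744 and 0.881. The median over all 32851 windows of the table was 0.374. Both the covered and the most distant window are printed on the minus strand, and neither holds TGCCGC, which 8.68% of all windows do, or the CTCF core, which 0.0335% do.
Igf2, most upstream start, in the slow domain: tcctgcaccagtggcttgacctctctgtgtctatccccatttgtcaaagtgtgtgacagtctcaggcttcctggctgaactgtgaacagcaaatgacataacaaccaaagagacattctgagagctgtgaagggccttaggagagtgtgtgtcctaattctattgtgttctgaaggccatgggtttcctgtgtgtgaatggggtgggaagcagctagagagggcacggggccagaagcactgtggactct
Igf2, most downstream start, in no domain: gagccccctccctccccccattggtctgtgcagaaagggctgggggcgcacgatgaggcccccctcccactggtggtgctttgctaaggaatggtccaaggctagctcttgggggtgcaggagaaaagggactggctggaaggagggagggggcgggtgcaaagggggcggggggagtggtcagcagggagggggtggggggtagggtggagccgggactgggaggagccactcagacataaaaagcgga

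Kcnq1 carried 12 of the 16 domains, 4 each of the intermediate, slow and residual classes. Kcnq1 encodes the pore-forming subunit of a voltage-gated potassium channel of heart and inner ear, and its body (chr7:143106362-143427042) is 320.7 kb long. Domains covered 163.2 kb of it, or 50.9%: residual domains held 25.6% of the body, slow domains 17.5% and intermediate domains 7.86%. Set beside the 2492 coding genes that span 100 kb or more, whose median cover was 1.93% and whose 95th percentile was 11.8%, Kcnq1 ranked 3 by covered share, after C130026I21Rik and D10Wsu102e. By kb in residual domains (81.9) it ranked 4, after Asic2, C130026I21Rik and Gm20388, and 212 of the 2492 genes had any.

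The order of the classes along Kcnq1 is given as a description. In the direction of transcription it was slow, intermediate, residual, residual, slow, intermediate, then after KvDMR1 residual, intermediate, intermediate, slow, slow and residual. Of 11 neighbouring pairs, 3 shared a class. The same count was not made for domains elsewhere, so no particular arrangement is shown. The Kcnq1 start itself lay in a slow domain of 7.2 kb (chr7:143105101-143112300), with all 7 annotated transcript starts. The following intermediate domain was 6 kb wide, and a residual domain of 2.7 kb came 6.9 kb after it.

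The longest domain of the cluster was residual and spanned the middle exons of Kcnq1. It was 39 kb wide (chr7:143163301-143202300), the third widest domain on chromosome 7 and the seventh of 1960 residual domains in the genome, and it held exons 3 to 10. Another residual domain of 33.3 kb (chr7:143316901-143350200) lay inside intron 11 beyond KvDMR1, and a residual domain of 17.7 kb (chr7:143420101-143437800) covered the last exon, number 16. They ranked 11 and 36 in width within their class. Exons 13 to 15 lay in an intermediate domain of 6.6 kb, exon 1 in the slow domain at the start, and exons 2, 11 and 12 in none, so 13 of 16 exons met a domain. Intron 15 also held an intermediate domain of 8.7 kb and slow domains of 14.1 and 3.9 kb. Of the longest introns, intron 10 was covered over 65.1% of 65.9 kb and intron 11, with KvDMR1, over 34.2% of 97.3 kb. The annotated transcripts 4933417O13Rik and Gm38095 overlapped the 33.3 kb domain, and 4933417O13Rik also reached the 6.6 kb domain.

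KvDMR1 lay in the widest gap between the domains of Kcnq1. The gap from the end of the preceding intermediate domain to the start of the 33.3 kb residual domain was 63 kb, against 3.9 to 30.3 kb for the other gaps, with a median of 7.2 kb over all 11. It exceeded 72.5% of the 42869 gaps between neighbouring domains in the genome, whose quartiles were 12 and 69.3 kb, so a gap of this length is common elsewhere. KvDMR1 was 41.1 kb from the intermediate domain on the side of the Kcnq1 start and 20.2 kb from the residual domain on the other side. Domains numbered 6 on either side of it.

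**Figure D2:**
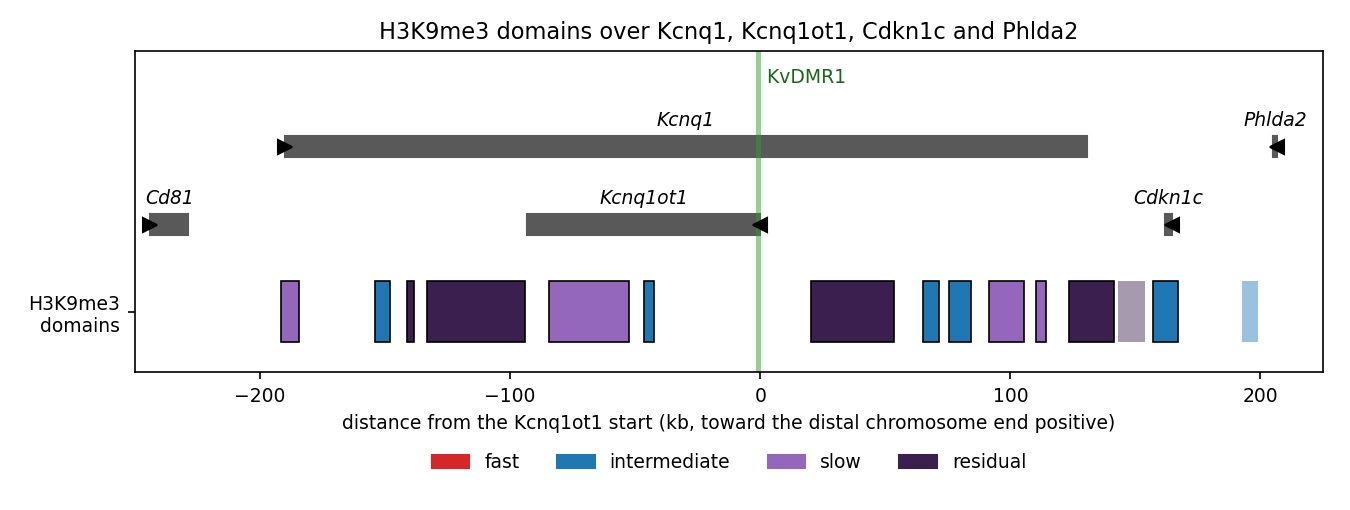
H3K9me3 domains around Kcnq1, by decay class, against the distance from the Kcnq1ot1 start in kb. Grey bars are gene bodies with an arrowhead at the start, outlined boxes are domains at listed genes and pale boxes those beyond 5 kb. The green band is KvDMR1, which lies in the 63 kb stretch without a domain.

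Kcnq1ot1 had 3 domains, all of them shared with Kcnq1, since the RNA is read antisense from within that gene. The body (chr7:143203458-143296549, 93.1 kb) was covered over 38.7%. Its first 42.6 kb from the start held no domain. A 3.9 kb intermediate domain (chr7:143250001-143253900), which also overlapped Gm27395, and a slow domain of 32.1 kb (chr7:143211901-143244000) followed in the direction of transcription, and the slow domain alone covered 34.5% of the body. The 39 kb residual domain began 1.16 kb beyond the annotated 3′ end, and it was the sole domain counted for a gene through the 5 kb flank. The 250 bases before the RefSeq start, in no domain, are printed on the minus strand for comparison with the Igf2 window in the slow domain. They have a CpG ratio of 0.305 and hold neither motif. These bases reach only the edge of KvDMR1, most of which lies downstream of the start. KvDMR1 as a whole had a CpG ratio of 0.767, and its 3 matches of TGCCGC lie in that downstream part.
Kcnq1ot1 promoter, chr7:143296548-143296797: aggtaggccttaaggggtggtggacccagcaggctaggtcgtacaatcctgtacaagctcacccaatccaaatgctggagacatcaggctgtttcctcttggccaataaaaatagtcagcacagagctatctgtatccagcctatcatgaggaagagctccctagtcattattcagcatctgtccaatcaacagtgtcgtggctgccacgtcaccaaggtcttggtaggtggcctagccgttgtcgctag

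Of the listed genes beyond the 3′ end of Kcnq1, Cdkn1c was fully inside a domain and Phlda2 was not. Cdkn1c encodes p57, an inhibitor of cyclin-dependent kinases. Its intermediate domain was 9.9 kb wide (chr7:143453701-143463600) and covered 100% of the 2.71 kb body with all 5 transcript starts, as well as the antisense gene Gm44732. With a CpG ratio of 0.479, above 98.2% of all domains, it was the most CpG-rich of the 16. Phlda2, a pleckstrin homology gene that restrains placental growth, had no domain within 5 kb. The nearest, an intermediate domain of 6.3 kb inside Slc22a18, a membrane transporter gene, was 6.14 kb away. Between Kcnq1 and Cdkn1c lay a residual domain of 10.8 kb, on Gm27901, which at 7.94 kb from Cdkn1c also fell just outside the limit.

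Ascl2 met a residual domain at its 3′ end, and Cd81 and Tssc4 met none. Ascl2 encodes a basic helix-loop-helix factor needed in trophoblast. The domain was 2.7 kb wide (chr7:142964701-142967400), covered 23.5% of the 2.44 kb gene body, or 0.572 kb, and stopped 1.86 kb short of the gene's 5′ end. Cd81, a tetraspanin membrane protein gene, was 37.2 kb and Tssc4, a spliceosome assembly factor gene, 34.0 kb from the nearest domain, which for both was the slow domain at the Kcnq1 start. No domain lay between Ascl2 and Kcnq1 over 137.7 kb.

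In all, 6 of the 9 listed genes had a domain within 5 kb, where 29.0% of 55413 annotated genes and 32.9% of 21938 protein-coding genes did. Since the 3 domains of Kcnq1ot1 belong to Kcnq1 too, these genes do not count as independent cases. The 5′ ends of H19, Igf2, Kcnq1 and Cdkn1c were inside a domain, and those of Ascl2, Phlda2, Cd81, Tssc4 and Kcnq1ot1 were not. For Igf2 this held for only 1 of 9 annotated transcript starts, whereas all starts of H19, Kcnq1 and Cdkn1c were inside. Thus 4 of the 16 domains were on a promoter of a listed gene (within 1 kb of a transcript start), 2 intermediate and 2 slow. None of the 5 residual domains was, but the residual domain at Ascl2 lay 1.32 kb from an Ascl2 start, just outside this limit. The share of residual domains on promoters elsewhere was not computed, so no difference between classes is shown. With any annotated transcript counted, 7 of 16 were within 1 kb of a start, against 10.6% of all domains. The 16 were selected for lying at genes, whereas all domains include intergenic ones, so these shares are not like for like.

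Residual domains made up a larger share at these genes than in the table. They were 5 of 16, or 31.3%, against 4.57% of the 42890 on all assembled chromosomes and 2.75% of the 2548 on chromosome 7. The slow share was 5 of 16 against 20.5% (21.4% on chromosome 7). The intermediate share was 6 of 16 against 71.5% (73.2% on chromosome 7), and the fast share 0 of 16 against 3.49% (2.67%). Residual domains held 46.6% of the 204.6 kb covered, slow domains 31.4% and intermediate domains 22.0%, where over all chromosomes residual domains held 4.86% and intermediate domains 61.4%. Of the 5 residual domains, 4 were on Kcnq1. No share was tested, as 16 neighbouring domains are no replicates of each other.

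**Figure D3:**
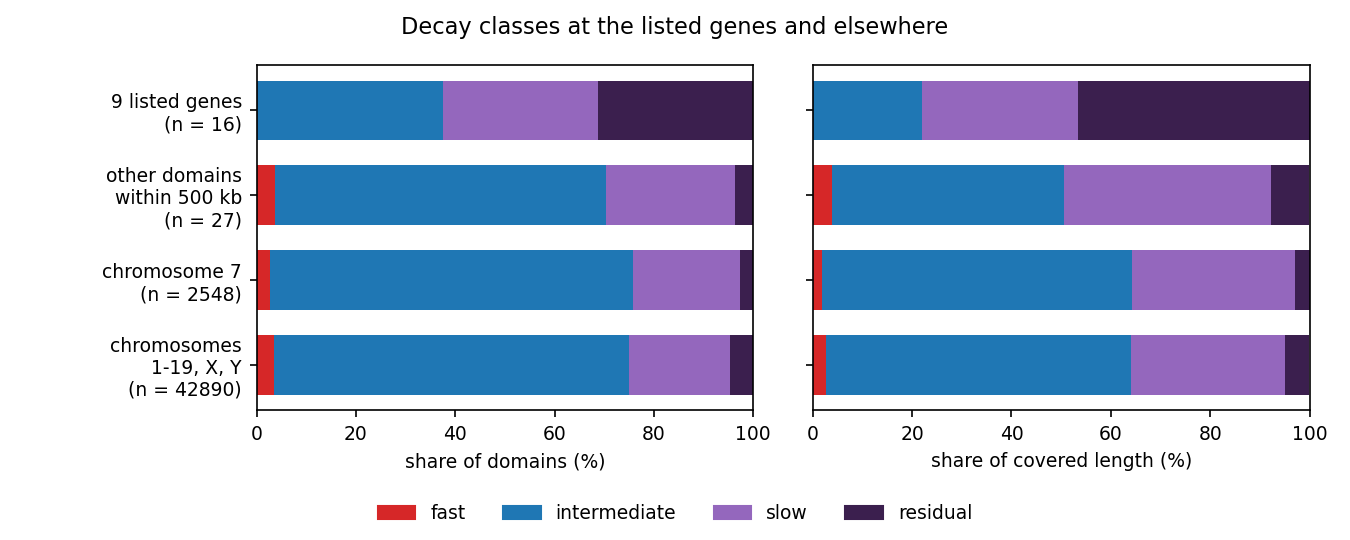
Share of domains (left) and of covered length (right) in each decay class, in percent, at the 9 listed genes, in the other domains within 500 kb, on chromosome 7 and on all chromosomes. Residual domains take 31.3% of the 16 domains and 46.6% of their length, against 4.57 and 4.86% over all chromosomes.

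The domains were wide. The 6 intermediate domains ran from 3.9 to 9.9 kb, the 5 slow ones from 3.9 to 32.1 kb and the 5 residual ones from 2.7 to 39 kb, and the medians were 7.65, 7.2 and 17.7 kb. Over all domains of the same classes the medians were 2.7, 4.2 and 2.7 kb. In all, 14 of 16 exceeded the median width of 3 kb of all domains, and 5 of 16 were at least 10 kb wide (2 slow and 3 residual, all on Kcnq1), against 6.10% of all domains.

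**Figure D4:**
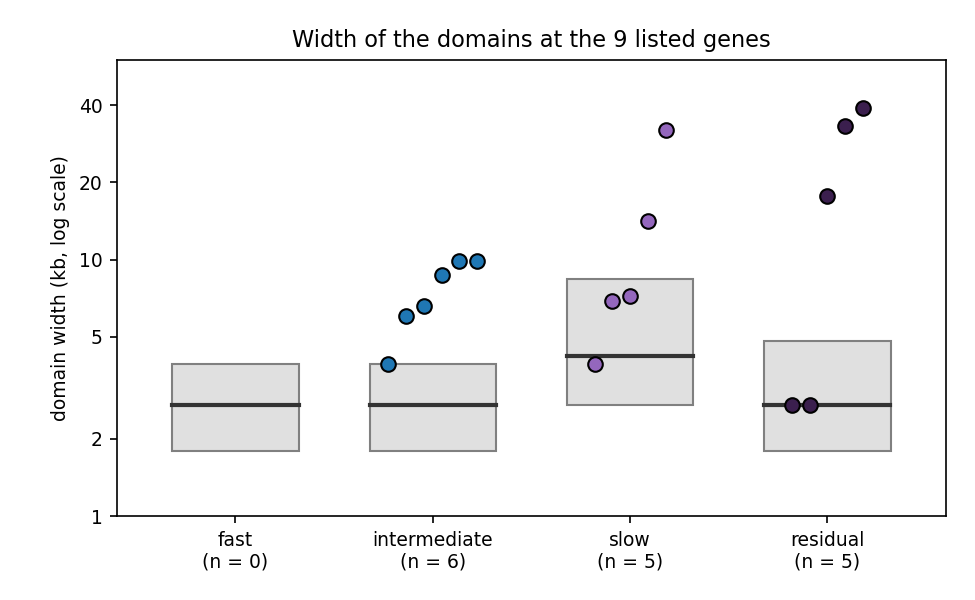
Width of each domain at the listed genes (points, kb on a log scale) by decay class, over a grey box from the lower to the upper quartile of all domains of that class on chromosomes 1 to 19, X and Y, with the median as a bar. The residual points fall into a pair at 2.7 kb and 3 between 17.7 and 39 kb.

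The domains at the listed genes consisted mostly of unique, GC-rich sequence in each class. The soft-masked share, the part of a domain marked as repeats in the reference, was under 25% in 15 of 16, against 16.5% of all domains. By class these were 6 of 6 intermediate against 14.5%, 4 of 5 slow against 12.2% and 5 of 5 residual against 64.8%, while the figure for all fast domains was 19.2%. Its median was 6.63% in the 6 intermediate, 12.6% in the 5 slow and 10.4% in the 5 residual domains, while the medians over all domains of these classes were 72.3, 74.0 and 17.05%. At least 95% of sampled 31-mers occurred once in the genome in 14 of 16, against 14.2% of all domains. GC content was above the median of all domains (43.0%) in 15 of 16, from 46.1 to 54.8%, and the CpG ratio was below the median of all (0.230) in 13 of 16. Soft-masked shares ran from 8.25 to 21.5% in the residual domains of the cluster, from 4.51 to 56.5% in the slow and from 6 to 9.26% in the intermediate ones. Of the 5 residual domains, 4 had a higher share than every intermediate one.

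The exception was the 32.1 kb slow domain inside Kcnq1ot1. Its GC content was 34.8%, above that of only 0.277% of all domains, with 56.5% soft-masked sequence and 77.9% unique 31-mers. It lay between the 39 kb residual domain (49.3% GC, 11.3% soft-masked) and the 3.9 kb intermediate domain (46.1% GC, 9.26% soft-masked).

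**Figure D5:**
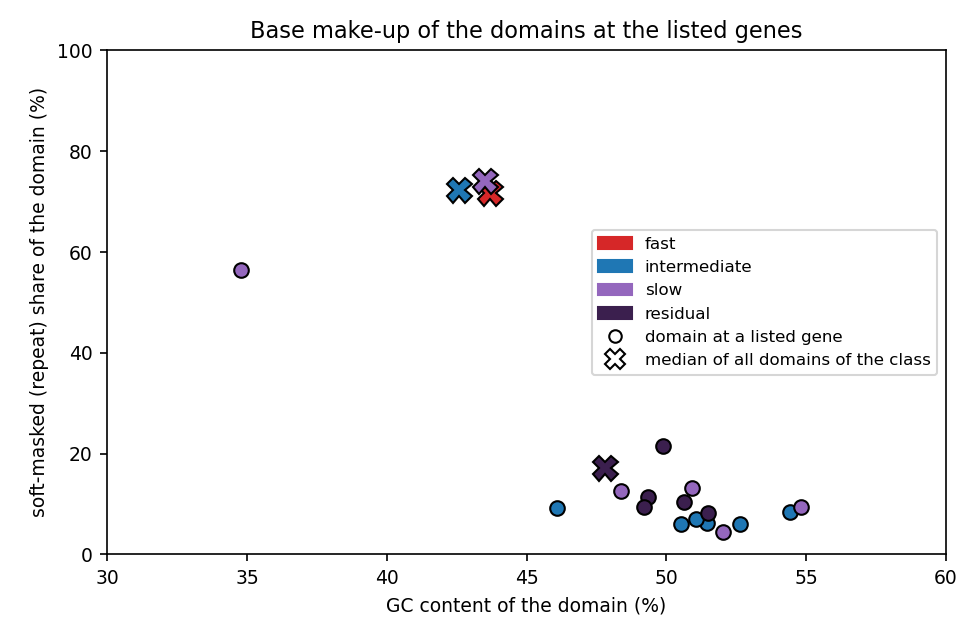
Soft-masked share against GC content, both in percent, for the 16 domains (circles, coloured by decay class), with crosses at the medians of all domains of each class. All but the slow domain at 34.8% GC lie below 25% soft-masked sequence.

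The background was also taken among domains with as little repeat sequence, a comparison chosen after these values were seen. Of the 7059 domains with under 25% soft-masked sequence, 18.0% were residual, 15.1% slow, 62.8% intermediate and 4.08% fast. Among the 120 of these that were at least 10 kb wide, 61, or 50.8%, were residual, 19.2% slow, 28.3% intermediate and 1.67% fast. At the listed genes, 15 domains had as little repeat sequence, and 5 of them, or 33.3%, were residual, against 18.0%. Of the 4 that were also at least 10 kb wide, 3 were residual and 1 was slow, against 50.8% residual. These are few domains of 1 gene cluster, and no share was tested.

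Domains were dense in the cluster but unevenly spread. From the first to the last listed gene there were 27.7 per Mb, which covered 29.4% of the sequence. The values were 17.5 per Mb and 8.07% on chromosome 7, and 15.7 per Mb and 6.28% over all chromosomes. Of the 26 domains in this span, 12 were at Kcnq1, while the 137.7 kb between the domains of Ascl2 and Kcnq1 held none. The 27 other domains within 500 kb were 18 intermediate, 7 slow, 1 residual and 1 fast, with a median width of 3.3 kb and a median soft-masked share of 35.4%. Of 21 other genes of the cluster and its borders, 8 had a domain within 5 kb, beside the 29.0% of all annotated genes and 32.9% of protein-coding genes given above, and this share was not tested. Of these 8 genes, 7 had an intermediate and 2 a slow one, and 0 had a residual or a fast one. Igf2os shared the slow domain of Igf2. Ins2, the insulin gene, had intermediate domains of 2.1 and 6.6 kb, Th, for tyrosine hydroxylase, 1 of 2.1 kb, and Slc22a18 1 of 6.3 kb. Lsp1, a leukocyte protein gene, had an intermediate and a slow domain of 1.8 kb each. The decoy receptor genes Tnfrsf22 and Tnfrsf23 and their neighbour Tnfrsf26 had 4 intermediate domains of 1.2 to 4.2 kb between them. The other 13 genes had none.

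The Kcnq1ot1 start was also set beside the starts of 18 other genes, each tied to a control region methylated in the germ line. Those control regions were not located, and some lie away from the annotated starts, so the values below are for starts alone. Of the 18 genes, 3 had a domain within 1 kb of any annotated start and 15, like Kcnq1ot1, had none. Over all annotated genes 9.14% had such a domain, and 7.56% of protein-coding genes, so a start without a domain is the usual case in the genome. The 3 genes were Airn, the noncoding RNA that silences Igf2r, with an intermediate domain of 7.2 kb, Inpp5f, a phosphatase gene, with a slow domain of 10.8 kb, and Grb10, a receptor adaptor gene, with a slow domain of 1.5 kb. Distances to the nearest domain were measured from the edge of a window of 1 kb to either side of the starts, not from the starts themselves. For Kcnq1ot1 this distance was 19.4 kb. It lies within the range of those 15 genes, from 0.588 kb at Rasgrf1 to 79.0 kb at Mest. As no domain lay at the Kcnq1ot1 start, no gene could be ranked by likeness of class and width.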

How the data were processed

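ChIP-seq of H3K9me3 and HP1β with matched inputs was sequenced from mouse embryonic stem cells. The file used is a table of H3K9me3 domains that the authors deposited, with the position of each domain and its decay class as a word. The submitters' processing notes name deepTools, bedtools, SAMtools 1.1 and Bowtie2 2.3.4.1, with the builds GRCm38, mm10, mm9 and dm6. How domains were called, signal scaled to the spike-in and classes delimited is not stated in these sources. Per the labels, the track names speak of merged libraries and multi-mapped reads. Whether such reads entered the classes is not stated, and in repeated sequence a class could then mix several copies. The tracks, reads and HP1β values were not analysed here.

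All edges lay on a grid of 300 bp, and 0 domains ran past a chromosome end of GRCm38.p6. Genes and transcripts were those of GENCODE vM21. An overlap needed 1 bp. The 149 domains on unplaced sequences were left out of the background. The CpG island joined windows of 200 bp with at least 50% GC and an observed over expected CpG ratio of at least 0.6. Copies of 31-mers, read every 100 bp of each domain, were counted on both strands of the primary assembly. The interval and 31-mer code was tested on simulated data. Python 3.11.15, numpy 2.4.6, pandas 2.3.3, numba 0.67.0 and matplotlib 3.10.9 were used. The listed genes, the other lists and the rules were chosen with earlier results of these data known. Named genes are the listed ones, all genes that overlap their domains, and listed neighbours with a domain. Other genes named were chosen after their values were seen. Alternatives were other flanks, a midpoint rule, a width minimum, other promoters and other control region limits.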

Additional observations from a re-analysis of the deposited data

How the results depend on the processing

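The count of 16 domains was the same for gene bodies alone, by domain midpoint and for domains of at least 600 bp. It was 19 with a flank of 10 kb and 21 with 50 kb. The counts per class stayed within 1.5 times the reported ones, except that 1 fast domain came in at 50 kb. The listed genes with a domain numbered 7 at 10 kb, where Phlda2 came in, and 9 at 50 kb. Domains on a promoter of a listed gene numbered 5 with promoters of 5 kb, where the residual domain at Ascl2 came in. They numbered 4 with each gene's own 5′ end alone. The H19 control region was inside its domain with limits of 1 to 5 kb as well. KvDMR1 drawn as 1 kb to either side of the Kcnq1ot1 start was 19351 bp from the nearest domain, against 20206 bp. No paired analysis was possible because the table has no columns for samples. Depth limits the classes to an unknown degree.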

Other observations

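The authors' table gives each class a display colour, and slow and residual domains share the same colour, so at the listed genes 10 of the 16 domains would be drawn alike in a genome browser.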
